A study of Mus musculus with 4 samples.

Results

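The 6 smooth muscle contractile genes Acta2, Actg2, Cnn1, Tagln, Myl9 and Des were followed in mouse embryos that carry 2 copies of Btaf1 with the missense change V1330M. They were chosen by gene name. Every non-control probe that the array's annotation gives to one of these symbols was taken, which made 11 of 41174 probes and 29 of 43379 spots per array. Of the 11 probes, 9 passed the filter on dim signal and 2, both of Acta2, did not. The genes were picked with the mutant over wild-type ratios of these same arrays already known, so those ratios are given as a description and carry no test of their own. RNA from whole embryos was compared on 4 two-colour arrays. Each array held a pool of Btaf1-/- embryos against a pool of Btaf1+/+ embryos, with 300 ng of total RNA labelled per dye.

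The allele arose in mutagenised C57BL/6J mice that were then crossed to FVB/NJ, and all embryos of both genotypes were hybrids with 50 to 90% FVB. Embryos had 3 to 5 somites where this was possible. In the stage_matched set the somite counts of mutant and wild-type embryos were matched first. In the age_matched set litter mates took priority, at the price of somite counts that could be up to 5 apart. Each set was hybridised with the mutant pool in Cy5 (replicate 1) and again with the dyes exchanged (replicate 2), so a set is 1 replicate and n = 2. How many embryos made a pool, and whether extraembryonic membranes were removed, is not given in the sources used here. Fewer cells of a type and less RNA per cell cannot be told apart in such pools.

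Smooth muscle cells contract when myosin II pulls on actin filaments after its regulatory light chain has been phosphorylated. Acta2 and Actg2 encode the smooth muscle alpha and gamma actins, Myl9 a regulatory light chain of myosin II, Cnn1 (calponin) and Tagln (transgelin, or SM22 alpha) proteins that bind actin filaments, and Des (desmin) the intermediate filament protein of muscle. Serum response factor (SRF) and its partner myocardin switch on many such genes through a sequence element called the CArG box. Around the time of the first somites there are hardly any mature smooth muscle cells, and the forming heart tube expresses several of these genes. BTAF1 is an ATPase that takes the TATA-binding protein off DNA, so the sequence around the start sites is shown next.

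RefSeq promoters (GRCm38.p6) were matched for 4 of the 6 genes, Acta2, Cnn1, Myl9 and Des. The 250 bases before the start were searched on both strands for the TATA box letters TATAAA, for the CArG box that SRF binds, and for the E box CANNTG, a pattern that is its own reverse complement. The TATA box letters were found in 0 of the 4, against 12.4% of 32851 promoters. A TATA box with other letters, or one outside the 250 bases, would be missed. This count thus does not show that the 4 promoters lack one. The exact CArG consensus (2 C, then 6 of A or T, then 2 G) was found in 1 of the 4, Myl9, against 1.47% of all promoters. With up to 1 base off, an allowance chosen after the exact matches were seen, it was found in 2 of the 4, Myl9 and Acta2, against 18.6% of all promoters. The E box was found in 3 of the 4, against 66.2% of all. These windows, of Myl9, the gene with the lowest ratio, and of Acta2, are printed. Capitals mark the exact CArG box of Myl9 (161 to 152 bases before the start) and a copy with 1 base off (99 to 90), and in Acta2 both copies with 1 base off (84 to 75 and 34 to 25). The Myl9 window is chr2:156775214-156775463 on the plus strand and the Acta2 window chr19:34255374-34255623 on the minus strand.
Myl9 promoter: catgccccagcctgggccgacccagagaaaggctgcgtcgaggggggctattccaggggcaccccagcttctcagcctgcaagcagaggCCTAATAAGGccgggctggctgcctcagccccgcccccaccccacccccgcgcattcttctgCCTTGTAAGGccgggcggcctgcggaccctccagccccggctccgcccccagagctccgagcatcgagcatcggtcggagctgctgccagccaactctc
Acta2 promoter: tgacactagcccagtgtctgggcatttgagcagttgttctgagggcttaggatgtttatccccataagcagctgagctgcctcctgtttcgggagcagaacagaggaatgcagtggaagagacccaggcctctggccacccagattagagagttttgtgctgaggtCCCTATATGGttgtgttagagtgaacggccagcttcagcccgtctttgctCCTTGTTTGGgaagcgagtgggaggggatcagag

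The probes are 60 bases long. The Acta2 probe that spans an intron on the genome is printed here, because actin genes resemble each other most in their coding parts. It covers 3255 bases of chromosome 19 (A_51_P450957, 34322995 to 34326249, mm9) and starts at base 298 of its transcript.
Acta2 A_51_P450957: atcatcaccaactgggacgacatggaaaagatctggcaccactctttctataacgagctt
Whether transcripts of the other actins bind to this probe was not tested. The same holds for the Actg2 probe A_51_P241269, which also spans an intron (327 bases of chromosome 6).

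All ratios that follow are log2 of mutant over wild type, averaged over the 2 arrays of a set and then over the sets, with the SD between the sets. Levels are log2 normalized signals of a channel and are compared within a probe, apart from the summed signals of lists. Such a sum adds signals of different probes, so the brightest probes of a list weigh most in it. The 6 genes had negative mean ratios, from -1.13 for Myl9 to -0.25 for Des. With each gene read at its brightest probe the median was -0.60, made up of -0.35 for the stage_matched and -0.83 for the age_matched pools. Over all 13191 genes the median was 0.02. Of the 9 tested probes, 7 were negative on all 4 arrays, which 15.1% of all 21940 tested probes were. As a description, the limma fit over the whole table had 5 of the 9 lower at an adjusted p below 0.05 and 0 higher, where 3.14% of all tested probes were lower and 1.66% higher. These 5 were 2 of the 3 tested probes of Acta2 and the single probes of Actg2, Cnn1 and Myl9, so 4 genes had such a probe. These counts are no test of the members, since the ratios took part in the choice of genes, and nothing is read from them. Without background correction the count was 0, and 0.191% of all tested probes were lower. There 8 of the 9 had an unadjusted limma p below 0.05, a share not counted over the array. The median of the 6 genes was -0.53 without array age_matched replicate 1 and -0.63 without stage_matched replicate 1. The range of counts with an array left out is given in the last section.

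**Figure D1:**
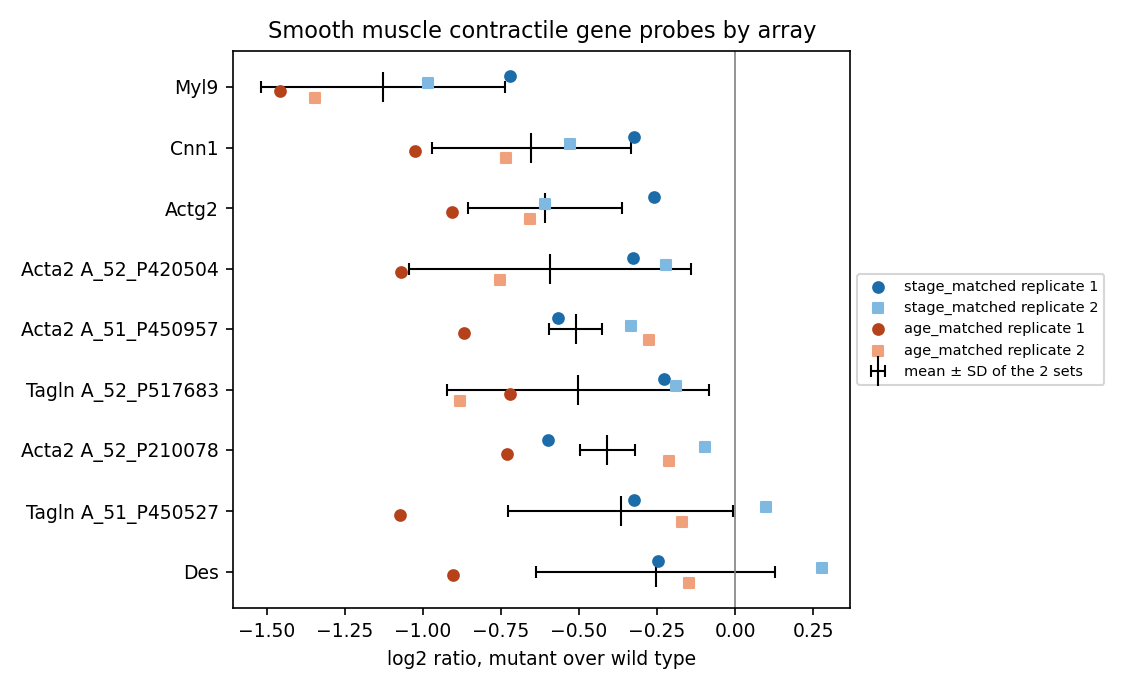
Log2 ratio of mutant over wild type (horizontal axis) of the 9 tested probes on each of the 4 arrays, with circles for the mutant in Cy5 and squares for the mutant in Cy3. The black tick and bar are the mean and SD of the 2 sets; 7 probes lie left of 0 on every array, while 1 Tagln probe and the Des probe are right of 0 on stage_matched replicate 2.

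Myl9, the regulatory light chain, had the lowest ratio of the 6. Its probe (A_51_P308298, chromosome 2, 156607301 to 156607360, mm9) read -0.72 and -0.98 with the stage_matched pools, and -1.46 and -1.35 with the age_matched ones. The mutant pools had levels of 12.53, 12.36, 11.74 and 11.72 in that order, and the wild-type pools 13.25, 13.34, 13.20 and 13.07. All mutant levels were thus below all wild-type levels, which held for 3.66% of all tested probes, while 3.54% had all mutant levels above. The mean ratio was -1.13 ± 0.39 (SD, n = 2 sets), or 2.18-fold lower in the mutant, and took rank 25 from the lowest among 13191 genes. The authors' deposited table gives -0.89, -0.95, -1.67 and -1.28 in the same order after conversion from log10 to log2.

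The 2 smooth muscle actins had similar mean ratios at their brightest probes. Actg2 read -0.26 and -0.61 in the stage_matched set, then -0.91 and -0.66 in the age_matched set. Its mutant levels ran from 9.16 to 10.34 and its wild-type levels from 9.82 to 10.95. The channels overlapped between arrays, although the mutant pool was the lower on each array. The mean of Actg2 was -0.61 ± 0.25 (SD, n = 2 sets), a 1.52-fold lower signal in the mutant.

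Acta2 has 5 probes on the array. The brightest, A_52_P420504 (chromosome 19, 34316060 to 34316119, mm9), is printed at 10 spots and read -0.33 and -0.22 in the stage_matched set, then -1.07 and -0.75 in the age_matched set. The SD over its spots was 0.14, 0.09, 0.08 and 0.10 on the 4 arrays, which is technical spread within an array. Its mutant levels were 13.85, 13.91, 13.15 and 13.06 and its wild-type levels 14.17, 14.13, 14.22 and 13.81. The stage_matched mutant levels thus lay just above the lowest wild-type level, and the age_matched mutant levels below every wild-type level. Its mean was -0.59 ± 0.45 (SD, n = 2 sets), which is 1.51-fold lower.

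The other Acta2 probes did not repeat that gap between the sets. The intron-spanning probe A_51_P450957 read -0.57, -0.33, -0.87 and -0.27 in the same order of arrays, with a mean of -0.51 ± 0.08. A_52_P210078 (34315697 to 34315756) read -0.60, -0.10, -0.73 and -0.21, with a mean of -0.41 ± 0.09. At both of these probes the arrays with the mutant in Cy5 gave the lower ratios, a dye difference that the mean over both orientations balances. The remaining probes, A_52_P239556 and A_52_P644232, were well above background in 0 of 4 mutant channels and in 1 and 0 of 4 wild-type channels, and were not tested.

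The calponin gene Cnn1 (A_51_P350817, chromosome 9, 21913058 to 21913117, mm9) read -0.32 and -0.53 with the stage_matched pools, and -1.02 and -0.73 with the age_matched ones. Its mutant levels were 11.07, 10.98, 10.22 and 10.13, against wild-type levels of 11.40, 11.51, 11.24 and 10.87. The mutant pool was the lower on each array, and the overlap of levels came from the low wild-type reading of age_matched replicate 2. The mean was -0.65 ± 0.32 (SD, n = 2 sets), 1.57-fold lower in the mutant.

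The transgelin gene Tagln was read by 2 probes that lie within the same gene on chromosome 9 and differed in how steady they were. A_52_P517683 (45738916 to 45738975) read -0.23, -0.19, -0.72 and -0.88, so both arrays of a set were close. Its mutant levels, 9.02 to 9.58, were all below its wild-type levels, 9.65 to 9.90. The mean was -0.50 ± 0.42 (SD, n = 2 sets). The brighter probe A_51_P450527 (45738097 to 45738156) read -0.32, 0.10, -1.07 and -0.17, with a mean of -0.37 ± 0.36. Here the dye orientation moved the ratio by -0.33 either side of the mean, nearly as much as the mean itself, and the levels of both genotypes overlapped. Neither Tagln probe was among those past the threshold.

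Desmin was the member with the ratio nearest 0. Its probe A_51_P335969 (chromosome 1, 75363404 to 75363629, mm9), printed at 10 spots, read -0.25, 0.28, -0.90 and -0.15. The spot SD was 0.06, 0.07, 0.12 and 0.08, and on stage_matched replicate 2 every spot read above 0. The dye term was -0.32. The mean was -0.25 ± 0.38 (SD, n = 2 sets), smaller than the SD between the sets, and the levels of mutant and wild-type pools overlapped.

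Mutant and wild-type levels overlapped over the 4 arrays at 7 of the 9 tested probes, and did not at the probes of Myl9 and Tagln (A_52_P517683). There all mutant levels were the lower, which held for 3.66% of all tested probes, while 3.54% had all mutant levels above. The order by mean ratio was Myl9, Cnn1, Actg2, Acta2, Tagln and Des. Cnn1, Actg2 and Acta2 lay within 0.07 of each other, less than the SD between sets of any of them, and Tagln and Des were also closer to each other than their SDs.

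**Figure D2:**
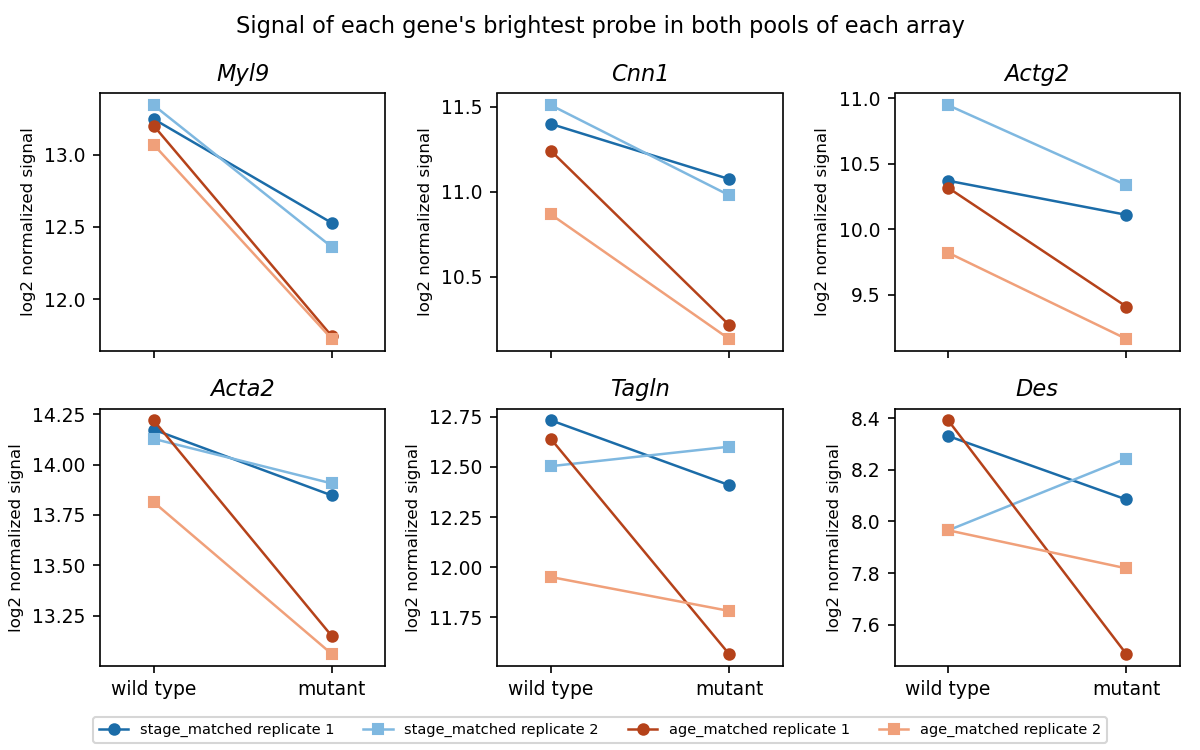
Log2 normalized signal (vertical axis, a separate scale in each panel) of the wild-type and the mutant pool on each array, joined by a line per array, for the brightest probe of each gene. All lines fall for Myl9, Cnn1, Actg2 and Acta2, while for Tagln and Des the line of stage_matched replicate 2 rises.

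Whether the ratios differed between the stage_matched and the age_matched pools is a question other than the mean ratio, and limma's test of it was run. The test used the same arrays whose ratios were known when the genes were picked. It is thus not shown to be free of that choice, and for the members its counts and p-values are a description. All 9 tested probes had a lower ratio in the age_matched set, where 49.7% of all tested probes had. Past the threshold were 2 of the 9, against 0.706% of all probes called lower and 1.6% called higher in the age_matched set. The difference, age_matched minus stage_matched, was -0.64 for Acta2 at A_52_P420504 (SE 0.175, limma adjusted p = 0.0207) and -0.59 for Tagln at A_52_P517683 (SE 0.175, limma adjusted p = 0.0379). For Myl9 the difference was -0.55 (limma adjusted p = 0.066), for Des -0.54 (0.0731), for Tagln at A_51_P450527 -0.51 (0.113), for Cnn1 -0.45 (0.198) and for Actg2 -0.35 (0.417). The other 2 Acta2 probes gave -0.12 each, with limma adjusted p of 0.889 and 0.883, so the probes of this gene disagreed. The error of this test comes from how far the dye difference changed between the sets, since a dye difference common to both is fitted. Moderation gave nearly all probes the same SE, near 0.175. This error holds no variation between embryos. The count was 0 of 9 with no term for dye (3 with an unadjusted limma p below 0.05) and with median centring (2). It was also 0 with the software's processed signals (6) and without background correction (6). It was 1 of 9 with ratios scaled between arrays or with both channels required above background. Over the whole array 0 probes were called lower with no term for dye, with median centring or without background correction. With the processed signals 0.36% were.

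The mutant channel showed this order more often than the wild-type channel. Mutant levels on both age_matched arrays were below those on both stage_matched arrays at 8 of the 9 probes, against 19.7% of all tested probes. Wild-type levels showed that order at 4 of the 9, Actg2, Myl9, Cnn1 and Acta2 at A_51_P450957, against 19.2% of all. Myl9 mutant levels went from 12.53 and 12.36 to 11.74 and 11.72, while its wild-type levels went from 13.25 and 13.34 to 13.20 and 13.07. Genes that mark sex moved between the same sets. The Y-linked Ddx3y went from 0.41 in the stage_matched to -0.85 in the age_matched set and Eif2s3y from 0.33 to -0.81 (limma adjusted p of the difference 1.25e-08 and 4.41e-07). Xist, expressed from the inactive X, went from -0.73 to 0.60 at probe A_52_P113537 (limma adjusted p = 1.14e-09). Of its 4 tested probes, A_52_P300376 went from -0.09 to 0.38 and did not pass (limma adjusted p = 0.16). The part of sex balance, and of the somite difference allowed in the age_matched set, in the members' difference was not tested.

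**Figure D3:**
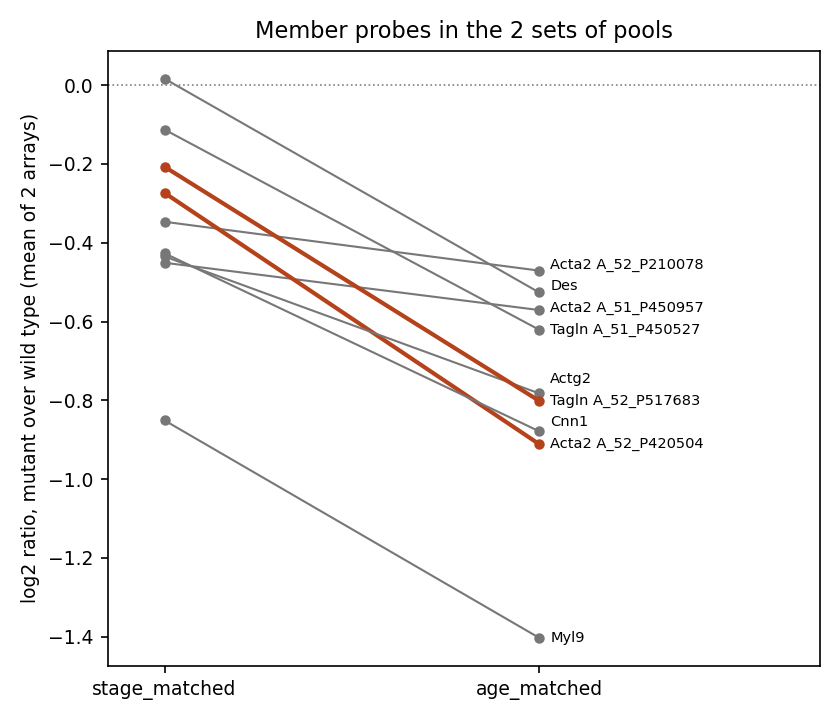
Mean log2 ratio of mutant over wild type (vertical axis) in the stage_matched and the age_matched set, each the mean of 2 arrays, with a line per tested probe. All 9 lines fall, and the red ones, Acta2 A_52_P420504 and Tagln A_52_P517683, passed the test of the difference.

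The defining genes of mature smooth muscle did not pass the threshold, apart from 1 probe of Myocd. Myh11, the smooth muscle myosin heavy chain, was well above background in 3 of 4 mutant and 4 of 4 wild-type channels and read -0.13 ± 0.22. Its levels were low, 6.52 to 7.04, so this ratio does not show that Myh11 was unchanged. With the software's processed signals it read -0.28 (limma adjusted p = 0.407). Smtn (smoothelin) read -0.15 ± 0.22 and Lmod1 (leiomodin, which starts actin filaments) -0.21 ± 0.12, and both were above background in every channel. Myocd, which encodes myocardin and is also active in the heart, fell by 0.72 ± 0.33 at A_51_P469942 (limma adjusted p = 0.0219, negative on 4 of 4 arrays). Its second probe read -0.21 ± 0.22 and was above background in 0 of 4 mutant and 4 of 4 wild-type channels. With the processed signals that probe read -0.64 and passed (limma adjusted p = 0.027).

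Of 29 other genes of the contractile apparatus, all tested, 3 were lower and 1 was higher in the mutant by limma, where 2.74% of all genes were lower and 2.12% higher. The median of that list was -0.15. The difference between the sets was called for 2 of the 29, both lower in the age_matched set, and 0 were called higher. These were Tpm1 (-0.69, limma adjusted p = 0.00865) and Mylk (-0.64, 0.0207). Their mean ratios, -0.60 ± 0.49 and -0.55 ± 0.45, did not pass. Synpo2 (an actin-bundling protein of the Z disc) fell by 0.82 ± 0.22 (limma adjusted p = 0.0111), Cnn2, a second calponin, by 0.60 ± 0.29 (0.0299) and Tpm2 (a tropomyosin) by 0.43 ± 0.15 (0.0485). Ppp1cb, the catalytic subunit of myosin light chain phosphatase, rose by 0.45 ± 0.01 (limma adjusted p = 0.0341), with single arrays from 0.10 to 0.80. A second Tpm2 probe read -0.30 and did not pass (limma adjusted p = 0.131). All 4 calls ended without background correction and without age_matched replicate 1. In all, the call of Tpm2 ended under 9 of 12 alternatives, that of Ppp1cb under 5, that of Cnn2 under 4 and that of Synpo2 under 2.

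The striated muscle actins had lower ratios than the smooth muscle actins. Actc1, the cardiac actin, read -1.02, -0.85, -1.89 and -1.79, a mean of -1.39 ± 0.64 (limma adjusted p = 0.0113). Acta1, the skeletal actin, which the early heart also expresses, read -0.71, -1.24, -1.80 and -1.68, a mean of -1.36 ± 0.55 (limma adjusted p = 0.00872). The cytoplasmic actins read 0.18 ± 0.42 and 0.18 ± 0.27 for the 2 probes of Actb, and -0.19 ± 0.19 and -0.23 ± 0.21 for those of Actg1. None of these 4 probes passed. The second Actb probe, A_51_P251154, has its name from the array's annotation only. It is placed on chromosome X, while the first is on chromosome 5. The calls of Actc1 and Acta1 ended without age_matched replicate 1 (-1.36 and -1.33) and without background correction (-1.37 and -1.26).

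Among genes that regulate smooth muscle transcription, 3 of 27 tested were lower and 0 higher, with a median of -0.04. Besides Myocd these were Prrx1, a homeobox factor of mesenchyme (-0.53 ± 0.32 at A_51_P209778, limma adjusted p = 0.0496), and Mef2c, a MADS-box factor of muscle (-0.51 ± 0.25, limma adjusted p = 0.0424). Of the other tested Prrx1 probes, A_51_P209771 passed (-0.69 ± 0.35, limma adjusted p = 0.0259) and A_52_P483713 did not (-0.51 ± 0.38, 0.066). For Prrx1 the alternatives were run at A_51_P209778 only. The call of Prrx1 ended under 8 of 12 alternatives, each left-out array among them, that of Mef2c under 6 and that of Myocd under 3. All 3 ended without background correction, with dim probes kept and without age_matched replicate 1. Srf itself read 0.09, -0.49, 0.16 and -0.43, with the sign following the dye, and had a mean of -0.17 ± 0.05 (limma adjusted p = 0.325). Of 12 tested immediate early and cytoskeletal targets of SRF, 0 passed in either direction, with a median of -0.11. The lowest was Ankrd1 at -0.93 ± 0.82, 0.90 Mb from the Btaf1 probe. The difference between the sets was called for 1 of the 12, Ankrd1 (-1.16, limma adjusted p = 2.75e-07), lower in the age_matched set. Of 11 tested intermediate filament genes and partners of desmin, 0 passed, with a median of -0.09.

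Markers of other cell types that can express the members were read beside them. Cardiomyocyte markers had the lowest median of the muscle lists. Of 15 tested 12 were lower, 14 were negative on all 4 arrays and the median was -0.96 (stage_matched pools -0.53, age_matched pools -1.40). The log2 of their summed signal was 15.79 to 16.34 in the mutant pools and 17.05 to 17.26 in the wild-type pools, without overlap. The difference between the sets was called for 13 of the 15, lower in the age_matched set, against 0.751% of all genes. Those with the lowest ratios were Myh7, a cardiac myosin heavy chain, at -1.69 ± 0.35, Tnni3, cardiac troponin I, at -1.62 ± 0.47, and Nppa, atrial natriuretic peptide, at -1.51 ± 0.89 (limma adjusted p = 0.00148, 0.00314 and 0.0194). For the 6 members at their brightest probes the log2 of the summed signal was 14.08 to 14.89 in the mutant and 14.87 to 15.26 in the wild-type pools. The call of Nppa ended without background correction, with dim probes kept and without age_matched replicate 1, while those of Myh7 and Tnni3 held under each alternative. The part of heart cells in the members' ratios was not tested.

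Mural cell markers, which mark pericytes and vascular smooth muscle, had 0 of 6 tested past the threshold and a median of 0.03. The log2 of their summed signal was 12.48 to 12.84 in mutant and 12.55 to 12.60 in wild-type pools, and Abcc9, Kcnj8 and Higd1b were not above background. Of 10 skeletal muscle markers 4 were tested and 0 passed. The defining genes Myf5, Myog and Myf6, with Myh3, Ckm and Chrna1, were not above background.

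Of 7 tested allantois and extraembryonic mesoderm markers 1 was lower, Postn, a matrix protein (-0.91 ± 0.29, limma adjusted p = 0.0111), and the log2 of their summed signal was 13.27 to 13.42 in mutant against 13.55 to 13.59 in wild-type pools. Of 8 endothelial markers 1 was lower, Kdr, a receptor of VEGF (-0.54 ± 0.23, limma adjusted p = 0.0333), and the log2 sums were 12.32 to 12.49 against 12.62 to 12.77. Both mesothelial markers tested, 2 of 4, did not pass. All 8 visceral endoderm markers were lower, with a median of -1.06, led by Apoa1, Rbp4 and Afp (-1.64, -1.49 and -1.43), and had log2 sums of 14.42 to 14.67 against 15.79 to 15.99. Their median did not follow the order of the sets, being -1.20 for the stage_matched and -1.03 for the age_matched pools. The call of Postn ended under 2 of 12 alternatives, without background correction and without age_matched replicate 1. That of Kdr ended under these, with dim probes kept and without age_matched replicate 2. The part of these tissues in the members' ratios was not tested.

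**Figure D4:**
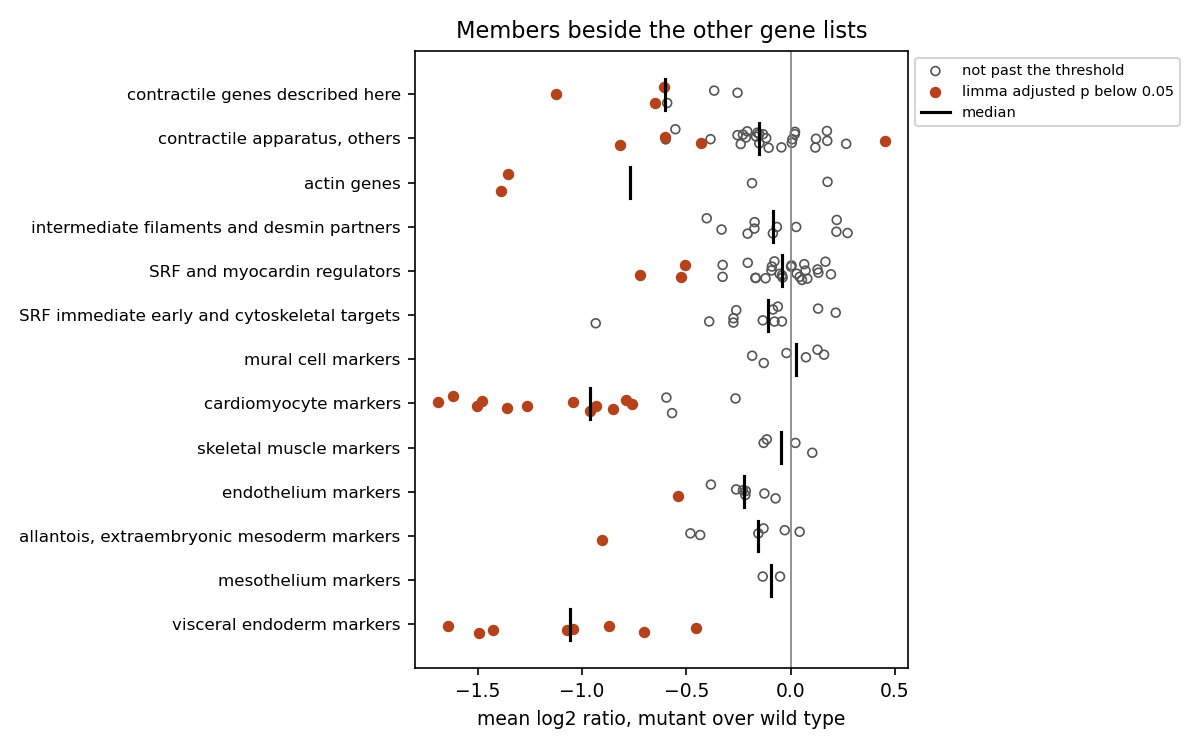
Mean log2 ratio of mutant over wild type (horizontal axis) of each gene at its brightest tested probe, by list, with the 6 contractile genes on top. Filled points passed the limma threshold, open points did not, and the black bar is the list's median, -0.60 for the contractile genes, -0.96 for cardiomyocyte and 0.03 for mural cell markers.

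The genes with the most similar profile were found by the root mean square distance over the 4 arrays between a gene's ratios and the mean of the 6 members, which was -0.37, -0.33, -1.07 and -0.63. The 5 nearest of all genes were Rrad (a small GTPase of heart and muscle, distance 0.055), Lrrc10 (a cardiac leucine-rich repeat protein, 0.128), Spon1 (a secreted matrix protein, 0.129), Zfp61 (a zinc finger protein, 0.142) and Prss23 (a secreted protease, 0.149). Likeness over 4 arrays of 2 pairs of pools is a description.

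Acta2 lies on the same chromosome as Btaf1, about 2.77 Mb away. Since the mutation arose on C57BL/6J and was bred into a mixed stock, the stretch of chromosome around Btaf1 may differ by strain between mutant and wild-type pools. The effects of the Btaf1 allele and of that linked stretch on Acta2 cannot be told apart here. Within 5 Mb of the Btaf1 probe 99 probes were tested, of which 7 (7.07%) were lower and 2 (2.02%) higher, with a median of 0.01. Over the whole array 3.14% were lower and 1.66% higher. Without the Acta2 probes 5 of 96 were lower, among them the visceral endoderm marker Rbp4, which lies closer to Btaf1 than Acta2 does. Btaf1 itself read 0.10 ± 0.03 (limma adjusted p = 0.555), and as a missense allele leaves the transcript in place, this level does not check the genotype of the pools. The other 5 members lie on other chromosomes, 1, 2, 6 and 9.

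**Figure D5:**
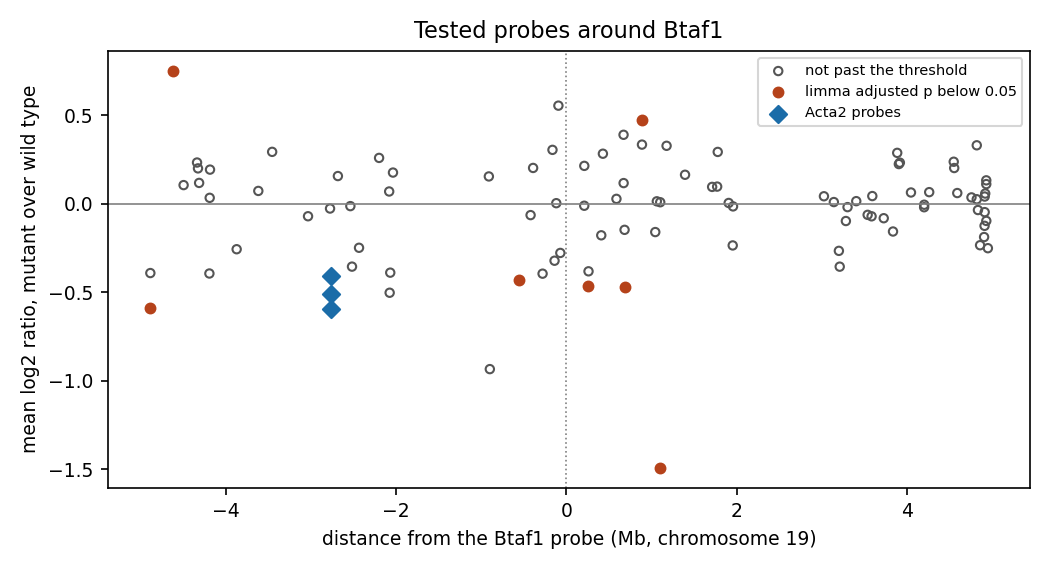
Mean log2 ratio of mutant over wild type (vertical axis) of the 99 tested probes within 5 Mb of the Btaf1 probe, by distance in Mb (horizontal axis). The 3 tested Acta2 probes are blue diamonds at -0.59, -0.51 and -0.41, other probes past the limma threshold are red, and the rest are open.

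The arrays differed by dye orientation as well as by pools. Sign-turned ratios of all tested probes correlated at 0.71 and 0.42 between arrays of the same orientation and at 0.39 and 0.16 between arrays of the same set. Between 52.9% and 59.6% of spots were well above background in a channel, 0 were saturated, and 0.26 to 0.41% per array were marked by the software and left out. The tested members were well above background in all 8 channels, and the small number of arrays limits the precision.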

How the data were processed

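Spot and background intensity of both dyes came from the scanner files the authors deposited, made with Feature Extraction (10.5.1.1 per the file headers, 9.5.3 per the submitters' processing notes). The value table the authors deposited holds log10 ratios, which equal the scanner's ratio turned to mutant over wild type, with a median of 0 on each array.

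The 4 arrays were read with limma 3.58.1 in R 4.3.3. Non-uniform, outlier and hand-marked spots were dropped, background correction used normexp (offset 50), and dyes were balanced by loess within each array with control and marked spots at weight 0. The sign was turned on dye swaps and the spots of a probe averaged. Levels were taken after Aquantile scaling between arrays. A probe was tested when well above background in all 4 mutant or all 4 wild-type channels. The mean ratio was fitted with limma from 1 value per set, 2 in all (1 residual and 7.12 prior degrees of freedom). The set difference was tested with limma on 4 arrays with terms for set and dye. Moderation there (241.8 prior degrees of freedom) gives nearly all probes 1 error, an SE near 0.175. Both tests are two-sided, with Benjamini-Hochberg adjustment over 21940 probes and a threshold of 0.05. Scripts were tested on simulated data.

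Probes were named through RefSeq accessions or else by the file's symbol. Positions are those of the files (mm9). Proteins were not used here. Apart from the members, text names Btaf1, the other actins, the defining smooth muscle genes and Srf, the sex-linked genes (added after their values were seen), the 5 nearest profiles and, per list, up to 3 called genes a direction with 1 sign on 4 arrays. In addition, Ankrd1, Tpm1 and Mylk were named for their difference between the sets, after it was seen. The members and lists were chosen with earlier results of these data known. Nothing says that pools of the sets came from separate embryos, so p-values measure only the spread between these samples.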

Additional observations from a re-analysis of the deposited data

Results flagged for a closer look

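The ratio of mutant over wild type differed between the age_matched and the stage_matched set, by limma's test of that difference, for 2 of the contractile gene probes and for other named probes. The difference, age_matched minus stage_matched, was -0.64 for Acta2 at A_52_P420504 (limma adjusted p = 0.0207) and -0.59 for Tagln at A_52_P517683 (0.0379). It was -0.91 for Actc1 (0.000135), -0.77 for Acta1 (0.00221), -0.66 for Tnni3 (0.0145) and -1.26 for Nppa (1.16e-08). For Ankrd1 it was -1.16 (limma adjusted p = 2.75e-07), for Tpm1 -0.69 (0.00865) and for Mylk -0.64 (0.0207). For Actb at A_51_P173760 it was 0.59 (limma adjusted p = 0.0476), while the second Actb probe, placed on chromosome X, gave 0.38 (0.36). Of the sex-linked genes, Ddx3y differed by -1.26 (limma adjusted p = 1.25e-08), Eif2s3y by -1.14 (4.41e-07) and Xist at A_52_P113537 by 1.33 (1.14e-09), while Xist at A_52_P300376 gave 0.47 (0.16). Each value is the difference of 2 pairs of pools, and its error is technical only. The contractile genes were picked with the ratios of these arrays known, so their values here are a description.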

How the results depend on the processing

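The 9 member probes kept a mean ratio below 0 in all 99 refits of single probes (0 above 0). Of these, 92 moved by less than the SD between sets. The refits with dim probes kept and with both channels above background change only which probes are tested. They cannot move a ratio, are among the 92 and show nothing about stability. The median of the 6 genes ran from -0.53 (without age_matched replicate 1) to -0.67 (without age_matched replicate 2, and with median centring). Counts moved more. Against 5 in the report, the member probes called lower were 0 without background correction, 2 when dim probes were kept and 7 with the 4 arrays taken as independent, and 0 (without age_matched replicate 1) to 7 (without stage_matched replicate 2) when an array was left out. The share of all tested probes called lower moved too, from 3.14% to 0.191% without background correction. It was 0.939% with dim probes kept and 5.54% with the 4 arrays taken as independent. With an array left out, its set has no dye swap to balance the other. The genes of the other lists past the threshold, 31 in the report, were 6 without background correction, 16 with no filter and 5 to 33 when an array was left out. The member probes called between the sets, 2 in the report, were 0 with median centring, without background correction, with no term for dye and with processed signals, and 1 with scaled ratios or both channels above background. The CArG box was found in 2 of 4 members' promoters with up to 1 base off, added after the data were seen, and in 1 of 4 exactly. The causes were not tested. The test of the difference between the sets could not be fitted with an array left out, since no residual degree of freedom then remains. Median centring called 829 probes lower and 121 higher over the array, against 690 and 365. No paired analysis was possible because the replicate numbers name only the dye orientation, and each ratio already sets mutant against wild type on 1 array.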
